A study of Mus musculus with 104 samples.

Results

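The genes described here encode the cytosolic HSP90 forms and an activator of HSP90, 3 small heat shock proteins and the mitochondrial chaperonin pair, in mouse lung after inhaled phosgene. They were chosen by name, as every probe set of the chip that is annotated to Hsp90aa1, Hsp90ab1, Ahsa1, Hspb1, Hspb8, Cryab, Hspd1 or Hspe1 and to no other gene, which gave 15 of the 22626 probe sets tested. The names were chosen with earlier results of these data known, so the counts called among them describe these genes and do not test them as a set. A probe set is the group of short oligonucleotides on the chip that reads 1 transcript or family of transcripts. Hsp90aa1, Hspb8 and Cryab had 3 probe sets each, Hspb1 and Hspe1 had 2, and Ahsa1 and Hspd1 had 1. No probe set was annotated to Hsp90ab1 alone, so it was not analysed here and 7 of the 8 genes have values.

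Phosgene is a reactive gas that injures the lung when it is breathed in. Total RNA of whole lung was measured on 104 mouse expression chips, 2 for each of 52 numbered lungs. Lungs came from mice given phosgene (labelled CG, 32 mg), from mice given air in its place and from untreated mice, with phosgene and air lungs at 0.5, 1, 4, 8, 12, 24, 48 and 72 h. There were 3 lungs in each of the 17 groups, except for 4 in air at 48 h. The labels give no strain, sex or age, no exposure length, no unit for the times (read here as hours) and no statement that a numbered lung is 1 animal, so p-values measure the spread between numbered lungs.

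HSP90 is a dimeric ATPase of the cytosol that completes the folding of kinases, steroid receptors and other clients. Hsp90aa1 encodes its stress-inducible form, Hsp90ab1 the constitutive form, and Ahsa1 a cochaperone that speeds the ATPase cycle. The small heat shock proteins Hspb1, Hspb8 and Cryab bind unfolding proteins without using ATP and hold them for refolding or removal. Hspd1 (HSP60) forms the barrel of the mitochondrial chaperonin and Hspe1 (HSP10) its lid. Many genes of this kind are switched on by heat shock factor 1, which binds inverted repeats of the letters GAA upstream of them.

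The promoter windows of the members are shown because such repeats can be read in them directly. The windows used, of Ahsa1, Hspb1, Hspb8, Hspd1 and Hspe1, run from 250 bases before to 50 bases after an annotated start (RefSeq, build GRCm38.p6). They were searched on both strands for GAANNTTC and TTCNNGAA, which join 2 inverted units and are each their own reverse complement, and for the 3-unit forms GAANNTTCNNGAA and TTCNNGAANNTTC, which are reverse complements of each other and each contain both shorter motifs. Of 32851 mouse windows of this length, 15.1% held a 2-unit motif and 0.603% a 3-unit motif. Capitals mark the matches below.
Hspe1, chr1:55087898-55088197, plus strand: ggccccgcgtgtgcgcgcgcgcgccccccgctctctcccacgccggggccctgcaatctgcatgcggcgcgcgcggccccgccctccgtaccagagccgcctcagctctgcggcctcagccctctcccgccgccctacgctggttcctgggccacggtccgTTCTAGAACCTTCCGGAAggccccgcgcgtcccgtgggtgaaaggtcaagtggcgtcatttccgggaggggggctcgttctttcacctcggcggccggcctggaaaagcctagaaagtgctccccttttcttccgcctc
Hspb1, chr5:135887669-135887968, plus strand: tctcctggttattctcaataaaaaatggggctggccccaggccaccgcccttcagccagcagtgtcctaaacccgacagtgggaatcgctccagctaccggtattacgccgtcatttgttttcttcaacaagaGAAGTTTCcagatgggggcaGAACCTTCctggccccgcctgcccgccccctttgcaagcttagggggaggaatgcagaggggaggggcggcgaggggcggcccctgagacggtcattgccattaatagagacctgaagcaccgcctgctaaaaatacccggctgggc
Hspb8, chr5:116422815-116423114, minus strand: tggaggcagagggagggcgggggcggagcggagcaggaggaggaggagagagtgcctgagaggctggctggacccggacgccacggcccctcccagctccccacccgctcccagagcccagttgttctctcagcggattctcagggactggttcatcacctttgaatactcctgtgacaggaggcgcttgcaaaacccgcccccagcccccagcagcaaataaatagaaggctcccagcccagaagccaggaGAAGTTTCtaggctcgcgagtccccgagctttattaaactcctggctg

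In the Hspe1 window TTCTAGAA, GAACCTTC and TTCCGGAA overlapped in 1 unbroken block, which starts 89 bases before the annotated start and holds both 3-unit forms. Hspd1 lies head to head with Hspe1 on chromosome 1, and 1 of the 2 Hspd1 windows shares 285 bases with that of Hspe1 and reads the same block on the other strand. The other Hspd1 window held no match. In the Hspb1 window GAAGTTTC and GAACCTTC start 117 and 97 bases before the annotated start, as 2 separate matches. In the Hspb8 window the only match, GAAGTTTC, lay just inside the transcript. The Ahsa1 window, on chromosome 12, held neither motif. A match is a description of the letters and not evidence of binding.

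Before the results by gene, the limits that touch all of them are given. The lung epithelial genes Sftpa1, Sftpb, Sftpc, Scgb1a1, Cldn18, Ager and Aqp5 were bright in every lung, from 702 units upwards. In the mean phosgene effect 1 of these 7 was called higher and 2 lower, against 9.35% and 12.9% of all probe sets. At 8 h 1 was called lower and at 24 h 1, against 2.9% and 0.517%, with median changes of -0.24 and -0.21. Markers of other cells moved as well. The summed level of 7 neutrophil genes was 1172 to 4642 in phosgene lungs and 585 to 743 in air lungs at 8 h. There 5 of the 7 were called higher, against 3.21% of all probe sets. All 6 endothelial genes were lower in the mean phosgene effect, against 12.9% of all probe sets. In whole lung, fewer cells of a type and less RNA per cell cannot be told apart, and the part of these shifts in the chaperone values was not tested.

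Phosgene raised 5 of the 7 measured genes at 4 and 8 h, namely Hsp90aa1, Hspb1, Hspb8, Hspd1 and Hspe1, and every change called at a single time was an increase. A change was called where limma gave an adjusted p under 0.05 over all probe sets. At 0.5 h 1 of 15 probe sets was called, against 0.217% of all probe sets, all of them higher. At 1 h 8 were called, against 0.729% of all (0.667% higher). At 4 h 11 were called, against 3.82% (2.18% higher), and at 8 h 11 again, against 6.11% (3.21% higher). At 12 h 1 was called, against 1.42% (1.04% higher). From 24 h on 0 of 15 were called by limma, against 1.29% at 24 h (0.769% higher), 4.23% at 48 h (2.36% higher) and 2.86% at 72 h (1.68% higher). At these times 3, 1 and 2 of the 15 had an unadjusted p under 0.05, against 2391, 3467 and 3098 of all 22626. The median log2 change of the 15 probe sets was 0.72 at 1 h, 1.08 at 4 h, 1.19 at 8 h and 0.46 at 12 h. The median of all probe sets lay between -0.07 and 0.01 at the 8 times. Phosgene lungs all lay above air lungs on 5, 11, 12 and 11 of the 15 at 0.5, 1, 4 and 8 h. The share over all probe sets was 3.38%, 4.68%, 8.63% and 8.25%. At 12, 24, 48 and 72 h they all lay above on 5, 4, 2 and 2, against 7.54%, 7.75%, 6.92% and 9.39%. Phosgene lungs all lay below air lungs on 1, 1 and 2 at 8, 12 and 24 h, against 11.9%, 12.1% and 10%.

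**Figure D1:**
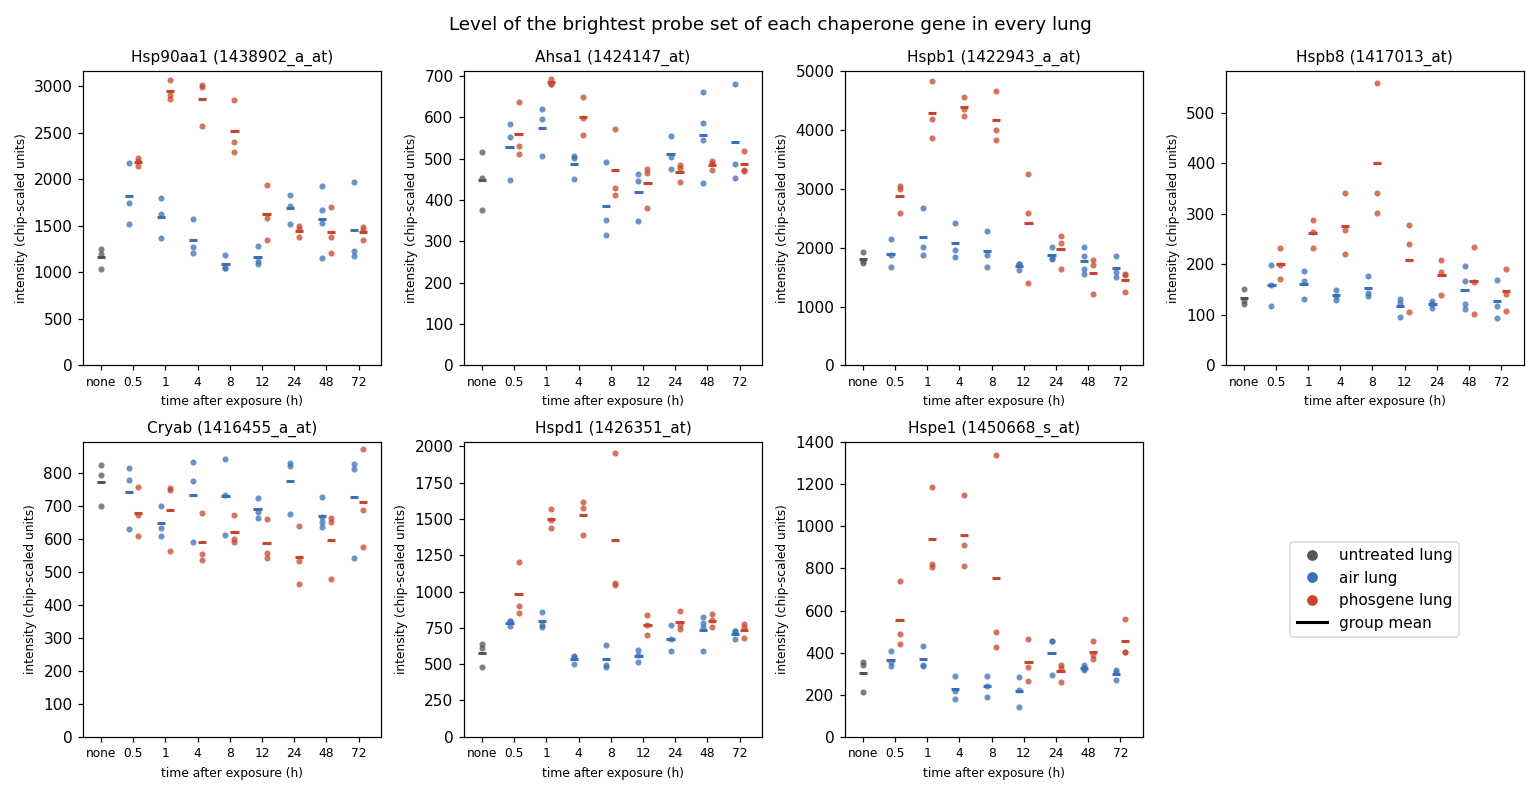
Intensity (chip-scaled units, linear axis from 0) of the brightest probe set of each gene in each of the 52 lungs, by time in hours, with untreated lungs at the left and group means as bars. Hsp90aa1, Hspb1, Hspb8, Hspd1 and Hspe1 phosgene lungs stood above all air lungs of their time at 1, 4 and 8 h, and those of Cryab did not.

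Hsp90aa1 was higher in phosgene lungs on all 3 of its probe sets at 1, 4 and 8 h. On the brightest one, 1438902_a_at, the untreated lungs read 1035, 1202 and 1256 units. At 8 h the air lungs read 1182, 1052 and 1043 units and the phosgene lungs 2854, 2406 and 2294 units. The groups did not overlap, and the lowest phosgene lung was well above every air and untreated lung of that comparison. The log2 change was 0.88 at 1 h, 1.08 at 4 h and 1.19 at 8 h, each with an SE of 0.16 (limma, adjusted p = 0.000814, 1.84e-05 and 1.61e-06). By 24 h the change on this probe set was -0.21 with an SE of 0.16 and not called (limma, adjusted p = 0.745). Every phosgene lung lay below every air lung there, while on 1437497_a_at every phosgene lung lay above every air lung, also with no call. Of all probe sets 10% had phosgene lungs all below and 7.75% all above air lungs at 24 h.

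Probe set 1437497_a_at gave the largest and longest response of the gene. At 0.5 h its air lungs read 872, 1227 and 1166 units and its phosgene lungs 1797, 1707 and 2091 units. It was the only member probe set called at this time, with a log2 change of 0.78 ± 0.15 (SE; limma, adjusted p = 0.00452), and the call was lost without air replicate 1 or without phosgene replicate 3. At 8 h its air lungs read 584, 533 and 493 units and its phosgene lungs 2640.1, 1849 and 1605 units. The groups stood far apart, and the log2 change of 1.86 ± 0.15 was the largest of the 3 probe sets (limma, adjusted p = 1.02e-11). It was again the only member called at 12 h, with a log2 change of 0.82 ± 0.15 (limma, adjusted p = 0.00107), from air lungs at 510.0, 647 and 779.6 units and phosgene lungs at 1217, 1004 and 1218 units. The effect at 12 h was below that at 8 h by a tested difference of -1.05 ± 0.21 on the log2 scale (limma, adjusted p = 0.048), with 1 of 15 members called in that step, against 0.0309% of all probe sets. In the other 6 steps between adjacent times limma called 0 of 15 members, against 0.00442% of all at 1 to 4 h and at 12 to 24 h, 0.0265% at 24 to 48 h and 0% in the rest. Between 0 and 5 members had an unadjusted p under 0.05 in these steps, against 505 to 1363 of all 22626 probe sets.

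The air lungs of Hsp90aa1 moved with time as well. On 1437497_a_at the air mean was 1089 ± 189.8 units at 0.5 h, 536 ± 45.5 at 8 h and 1006 ± 42.4 at 48 h (SD, n = 3, 3 and 4), and the change over the 8 air groups was called (limma F test, adjusted p = 0.000122). It was the only member called in that test, 1 of 15 against 0.592% of all probe sets. The air trough at 8 h fell at the time of the largest phosgene effect on this probe set. Against the 3 untreated lungs the mean of all air groups was called on 0 of 15 probe sets, against 0.124% of all. There 1 of the 15 had an unadjusted p under 0.05, against 2674 of all 22626.

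Ahsa1 was not called against air at any time. At 1 h its change was 0.25 against air and 0.60 against the untreated lungs, and the latter was called (limma, adjusted p = 0.015). Its air lungs at 4 h read 503, 452 and 508 units and its phosgene lungs 557, 599 and 648 units. The groups did not overlap there, and 8.63% of all probe sets had phosgene lungs all above air lungs at 4 h. The log2 change was 0.29 ± 0.15 and missed the threshold (limma, adjusted p = 0.291). At 8 h the air lungs read 316, 353 and 491 units and the phosgene lungs 573, 430.3 and 412 units, and the groups overlapped. Its highest group mean was 685 ± 7.99 units in phosgene lungs at 1 h and its lowest 387 ± 92.6 units in air lungs at 8 h (SD, n = 3). The mean phosgene effect over all times was 0.07 ± 0.05 (limma, adjusted p = 0.369), and without 5 air lungs whose label numbers lie apart from the others it was 0.14 and called (limma, adjusted p = 0.0331).

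Hspb1 was higher in phosgene lungs on both of its probe sets at 1, 4 and 8 h. On its brighter probe set, 1422943_a_at, the untreated lungs read 1733, 1783 and 1937 units. At 4 h the air lungs read 1846, 1961 and 2417 units and the phosgene lungs 4236, 4363 and 4564 units. The phosgene lungs lay close together and all far above the air lungs. The log2 change was 0.98 at 1 h, 1.08 at 4 h and 1.10 at 8 h, each with an SE of 0.18 (limma, adjusted p = 0.00106, 0.000129 and 7.09e-05). The second probe set, 1425964_x_at, was called at the same 3 times with log2 changes of 1.32, 1.38 and 1.52. At 0.5 h the phosgene lungs of 1422943_a_at, at 2593, 3052 and 2995 units, also stood above the air lungs at 2147, 1869 and 1674 units. Of all probe sets 3.38% had phosgene lungs all above at that time. The change of 0.60 ± 0.18 was not called (limma, adjusted p = 0.481). It was called in all 4 fits that took chips singly and the lung as a random block (limma, adjusted p = 0.0135 to 0.0176). These fits use the same lungs, so they are not separate support. Each takes 1 correlation between the chips of a lung for all probe sets. They called 84 to 93 of all probe sets at 0.5 h, against 49 in the main fit.

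At 12 h the Hspb1 phosgene lungs read 3259.7, 1398 and 2589 units against 1727, 1623 and 1729.7 units in air. Phosgene replicate 2 lay below all air lungs while the others lay above them. With that lung the log2 change was 0.42 ± 0.18 (limma, adjusted p = 0.292), and without it the change was 0.77 and called (limma, adjusted p = 0.00552). The same lung was the lowest of its group on 11 of the 15 member probe sets. Such counts were not particular to it, since phosgene replicate 3 at 8 h was the lowest on 12 and phosgene replicate 1 at 4 h on 11. Probe sets of 1 gene are also not independent. The neutrophil sum of phosgene replicate 2 at 12 h was 577 units, against 1589 and 1469.8 units in the other phosgene lungs at 12 h. Its summed level of 6 skeletal muscle genes was 222 units, against 859 units in replicate 1 and 259 units in replicate 3. The part of these differences in the chaperone values was not tested.

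Hspb8 was higher in phosgene lungs on all 3 of its probe sets at 4 and 8 h. On its brightest probe set, 1417013_at, the air lungs at 8 h read 143, 138 and 178 units and the phosgene lungs 559.9, 341 and 301 units. The groups did not overlap, and replicate 1 of the phosgene lungs stood above the rest. The log2 change was 1.26 ± 0.26 (limma, adjusted p = 0.00135). At 4 h the air lungs read 138, 130.1 and 149.6 units and the phosgene lungs 221, 340.5 and 268 units. The 4 h change of 0.91 ± 0.26 was called (limma, adjusted p = 0.0384), but leaving out any of 5 of the 6 lungs raised the adjusted p above the threshold, to between 0.0698 and 0.214. The other Hspb8 probe sets were also called at 4 and 8 h, with log2 changes of 0.54 and 0.81 on 1417014_at and of 1.22 and 1.25 on 1456434_x_at. At 1 h 0 of the 3 were called (limma, adjusted p = 0.474 to 0.798). On 1417013_at the phosgene lungs, at 287, 233 and 265 units, all lay above the air lungs, at 132, 186 and 168 units, as on 4.68% of all probe sets. With hybridization day as a term and the lung as a random block, the 1 h change of 0.71 on that probe set was called (limma, adjusted p = 0.0424). That fit called 364 of all probe sets at 1 h, against 165 in the main fit.

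Cryab, like Ahsa1, was not called at any single time. Its brightest probe set, 1416455_a_at, read 796, 825 and 701 units in untreated lungs. At 8 h its air lungs read 614, 736 and 845 units and its phosgene lungs 593, 673 and 601 units, with the ranges overlapping. At 24 h its air lungs read 824, 832 and 678 units and its phosgene lungs 463, 534 and 639 units. Every phosgene lung lay below every air lung, as on 10% of all probe sets. The 24 h change of -0.51 ± 0.16 was not called (limma, adjusted p = 0.113), and it was called with single chips and the lung as a random block (limma, adjusted p = 0.0235). That fit called 679 of all probe sets at 24 h, against 291 in the main fit. Over all 8 times the mean effect of -0.19 ± 0.05 was called (limma, adjusted p = 0.00971).

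That Cryab call rests on 1 probe set. The mean effect was -0.04 on 1434369_a_at and -0.05 on 1435837_at, neither called (limma, adjusted p = 0.607 and 0.632), and 1435837_at was dim, at 26.0 to 61.2 units in all lungs. At 24 h the phosgene lungs of 1435837_at all lay above the air lungs, as on 7.75% of all probe sets. Those of 1434369_a_at overlapped the air lungs at that time. When chips were centred on their medians the call on 1416455_a_at was lost (limma, adjusted p = 0.0505), as it was on chip A alone (limma, adjusted p = 0.121). Cryab is a major protein of heart muscle, and 10 cardiac muscle genes were measured as markers. Their summed level at 24 h was 2800 to 3188 units in phosgene lungs and 3481 to 4312 units in air lungs, when 0 of the 10 were called (limma). Of the 10, 4 were called lower at 48 h and 4 at 72 h, against 1.87% and 1.19% of all probe sets called lower, and 4 were lower in the mean effect, against 12.9%. At 72 h their median change was -0.60 and that of Cryab 1416455_a_at was -0.03. Their part in the Cryab values was not tested.

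**Figure D2:**
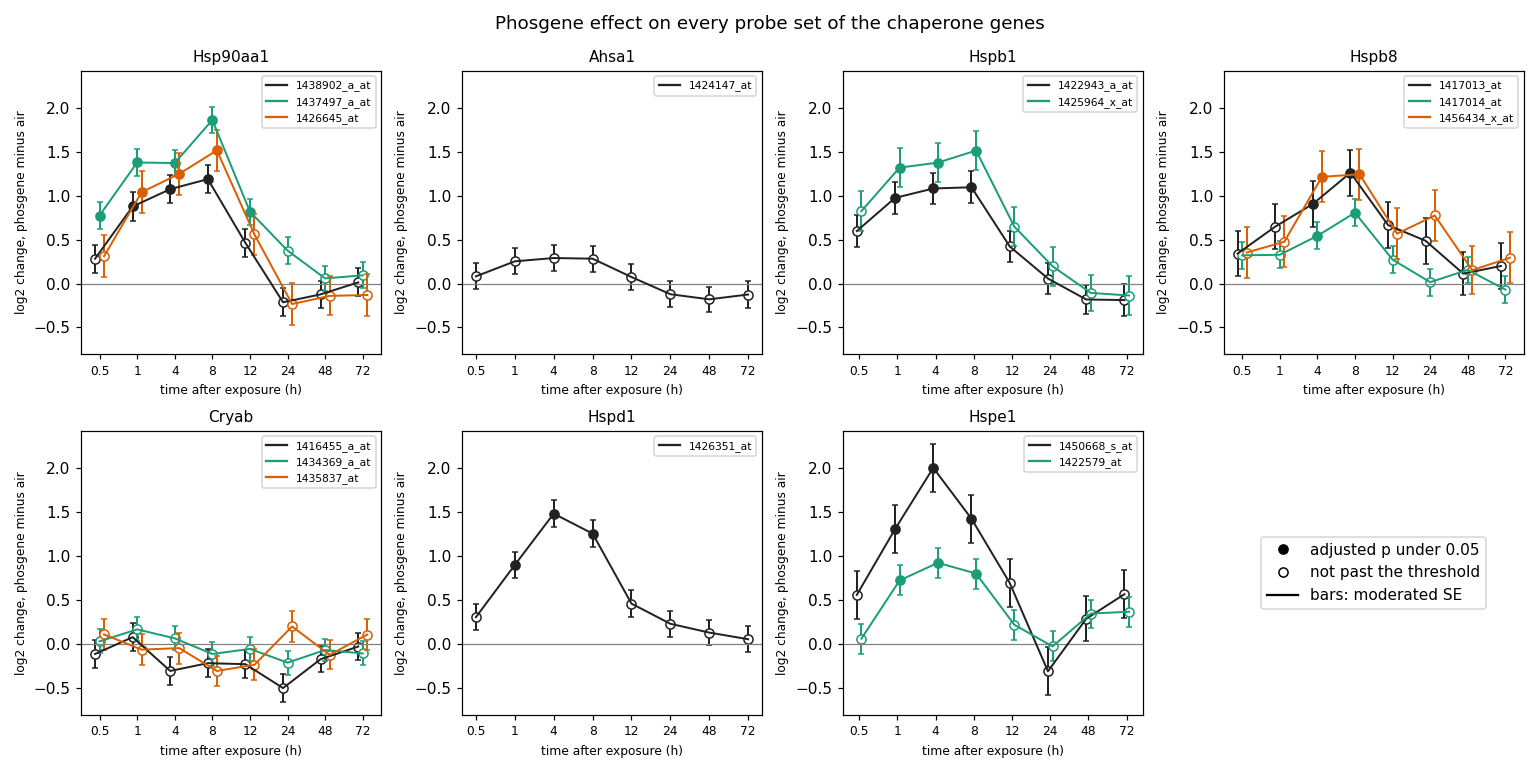
Log2 change (phosgene minus air) of all 15 member probe sets by time in hours, 1 panel per gene and 1 line per probe set, with moderated SE bars and filled points where the adjusted p was under 0.05. Filled points cluster at 1 to 8 h, none is below 0, and Ahsa1 and Cryab have none.

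Hspd1 and Hspe1 rose together. The Hspd1 probe set, 1426351_at, read 478, 609 and 642 units in untreated lungs. At 4 h its air lungs read 546, 500.4 and 557 units and its phosgene lungs 1390.2, 1617 and 1576 units. The phosgene lungs all lay far above the highest air lung. The log2 change was 0.90 at 1 h, 1.48 at 4 h and 1.26 at 8 h, each with an SE of 0.15 (limma, adjusted p = 0.000224, 4.43e-09 and 1.75e-07). At 12 h the change was 0.46 ± 0.15 and not called (limma, adjusted p = 0.131), and with single chips and the lung as a random block it was called (limma, adjusted p = 0.00921). That fit called 760 of all probe sets at 12 h, against 322 in the main fit.

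On the brighter Hspe1 probe set, 1450668_s_at, the air lungs at 4 h read 216, 180.2 and 288 units and the phosgene lungs 812, 1149 and 913 units. The groups did not overlap, and the log2 change of 2.01 ± 0.27 (4.02-fold) was the largest of any member at any time (limma, adjusted p = 3.13e-06). The change was 1.31 at 1 h and 1.43 at 8 h, both with an SE of 0.27 (limma, adjusted p = 0.00523 and 0.000571), and the 1 h call was lost without phosgene replicate 1. The second probe set, 1422579_at, was called at the same times with changes of 0.72, 0.92 and 0.80. At 48 and 72 h the phosgene lungs of both Hspe1 probe sets all lay above the air lungs, with no call. Of all probe sets 6.92% and 9.39% had phosgene lungs all above at these times. Names ending in _s_at or _x_at mark probe sets whose probes may match further transcripts, and Hspd1 and Hspe1 have processed copies in the genome, so these levels may include others.

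At 8 h 1 phosgene lung stood above its group. The Hspe1 phosgene lungs on 1450668_s_at read 1341, 427 and 499 units against 189, 241 and 288 units in air, and those of Hspd1 read 1957, 1058 and 1045 units against 478, 497 and 629.5 units. Replicate 1 was the highest phosgene lung on 12 of the 15 member probe sets, and phosgene replicate 3 at 24 h was the highest of its group on 11. Without phosgene replicate 1 at 8 h the log2 change was 0.92 for Hspe1, 0.96 for Hspd1 and 1.01 for Hspb8, all still called, and 9 member probe sets were called in place of 11. Its neutrophil sum was 4642 units, against 3378 and 1172 units in replicates 2 and 3. Its summed level of 6 skeletal muscle genes was 1345 units, against 280 and 241 units in these replicates. In other groups such sums and the members went apart. At 4 h phosgene replicate 1 had the highest neutrophil sum (2859 units against 1158.5 and 1900 units) and was the lowest on 11 of the 15. At 1 h phosgene replicate 3 had the highest skeletal muscle sum (1172 units against 203 and 265 units) and was the highest on 1 of the 15. The part of these sums in the chaperone values was not tested.

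The effect changed with time on 8 of the 15 probe sets in an F test over the 8 times, against 2.74% of all probe sets. These were the 3 of Hsp90aa1, both of Hspb1, both of Hspe1 and that of Hspd1. The adjusted p from limma ran from 7.13e-08 on Hsp90aa1 1437497_a_at to 0.0475 on Hspe1 1422579_at. The 3 Hspb8 probe sets were not called in this test (limma, adjusted p = 0.134 to 0.468). In the effect averaged over all times 12 of 15 were called, against 22.2%, with 11 higher, against 9.35%, and Cryab 1416455_a_at lower, against 12.9%. Of 32 called increases, 31 were positive on every hybridization day that held both groups, and the exception was Hspb8 1417014_at at 4 h, with day values of -0.05 and 0.35 on the log2 scale. The increases were picked on these same chips, so their sign within days is no separate support for them. These days held few lungs, with 1 phosgene lung at 4, 8 and 12 h and 1 air lung at 8 h. For 4 of the 32, Hspb8 1417014_at at 4 h included, every day value was smaller than the overall change by more than 1.5 times. The day values were 0.39 and 0.48 for Hspb8 1417013_at at 4 h, against 0.91 overall. At 8 h they were 0.72 and 0.82 for Hspe1 1450668_s_at, against 1.43, and 0.59 and 0.83 for Hspd1, against 1.26.

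By group mean, phosgene lungs at 1, 4 and 8 h held the 3 highest places for Hsp90aa1, Hspb1, Hspb8, Hspd1 and Hspe1, and phosgene lungs at 0.5 h the fourth place for all of these but Hspb8. Most neighbours in the order could not be separated. Of 16 neighbouring pairs per gene, the lungs of 1 pair did not overlap for Hsp90aa1, Hspb1 and Hspd1, and those of 0 pairs for Hspb8 and Hspe1. For Hsp90aa1 and Hspb1 that pair was phosgene at 8 h above phosgene at 0.5 h, and for Hspd1 phosgene at 0.5 h above phosgene at 48 h. For Ahsa1 it was phosgene at 1 h above phosgene at 4 h. For Cryab the order began with air at 24 h and untreated lungs and ended with phosgene at 24 h.

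Partner genes were compared within lungs, as the phosgene effect on 1 gene minus that on the other, over the brightest probe sets and averaged over the 8 times. Of 3 such pairs, adjusted together, the effect on Hspb1 exceeded that on Cryab by 0.67 on the log2 scale (permutation within times, 2-sided, p = 1e-05, the smallest that these permutations can give, adjusted p = 3e-05), and was above it at 6 of 8 times. The effect on Hspd1 was below that on Hspe1 by a difference of -0.21 (permutation, adjusted p = 0.0277), but with the second Hspe1 probe set the difference was 0.18 and reversed (permutation, adjusted p = 0.00773). The order of this pair therefore depends on the probe set. The effect on Hspb1 minus that on Hspb8 was -0.10 (permutation, adjusted p = 0.249), positive at 3 of 8 times, and with the second probe sets it was 0.41 (permutation, adjusted p = 0.00027).

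**Figure D3:**
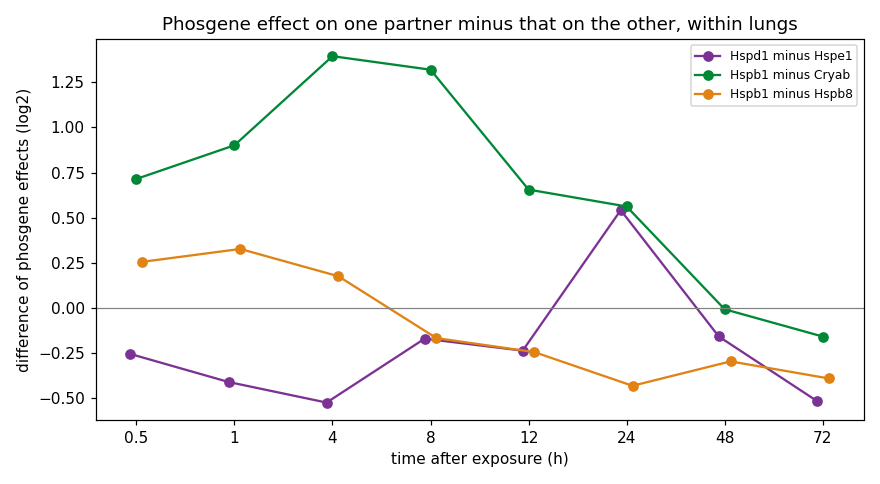
Difference between the phosgene effects on 2 partner genes (log2 units) at each of the 8 times in hours, for 3 pairs. The Hspb1 minus Cryab line lies above 0 at 6 of 8 times, and the Hspb1 minus Hspb8 line above 0 at 3 of 8.

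Over the 17 group means the gene most like Hsp90aa1 was Hsph1, which encodes an HSP70 nucleotide exchange factor (Pearson r = 0.979), followed by Hspd1 (0.954) and Hspe1 (0.936). Hspd1 was most like Hsph1 (0.968), Hspe1 (0.960) and Hsp90aa1 (0.954), and Hspe1 was most like Hspd1 (0.960), Hsp90aa1 (0.936) and Larp4b (0.916). For Hspb1 the closest were Zfand5 (0.951), Ifrd1 (0.949) and Mafg (0.946), and for Hspb8 they were Epha2 (0.948), Eif5 (0.941) and Snhg1 (0.940). Ahsa1 was closest to Mrps6 (0.886), Hnrnpc (0.862) and Stip1 (0.861), and Cryab to Sort1 (0.914), Anp32a (0.883) and Slc29a1 (0.868). These values are descriptive, since the group means share chips, scaling and the same exposure.

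Other genes of the same systems were counted by their brightest probe sets. Of 20 measured genes of the HSP70 system and heat shock factors, 10 were higher at 4 h and 9 at 8 h, with 1 lower at 8 h. Of all probe sets 3.82% and 6.11% were called in either direction at these times, and 2.18% and 3.21% higher. In a fit with 1 probe set for each gene, 683 and 1084 of 12393 were called, 356 and 486 of them higher. The changes at 4 h were 5.39 for Hspa1b and 5.24 for Hspa1a, which encode the inducible HSP70 and are nearly identical, so their signals cannot be told apart. They were 2.95 for Dnajb1, an HSP40 partner of HSP70, and 2.86 for Hsph1. Hspa2 fell by 0.53 at 8 h (limma, adjusted p = 0.0227).

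Beside the lists below, 2.18% of all probe sets were called higher at 4 h and 3.21% at 8 h (3.82% and 6.11% in either direction). Of 14 measured HSP90 cochaperones and other HSP90 genes, 3 were higher at 4 h and the same number at 8 h, with a median change of -0.03 and -0.02. They were Fkbp5, a steroid receptor immunophilin (1.40 at 4 h), Chordc1 (1.20) and Stip1, the adaptor between HSP70 and HSP90 (0.71). Of 6 other small heat shock genes 0 were called. Of 19 genes of mitochondrial import and protein quality control, 3 were higher at 4 h and 2 at 8 h, with median changes of 0.10 and 0.11. Hspa9, the mitochondrial HSP70, was higher by 0.77 at 4 h and 0.98 at 8 h, Tomm20 and Timm10, which belong to the import machinery, by 0.63 and 0.41 at 4 h, and Afg3l2, an inner membrane protease subunit, by 0.56 at 8 h. Of 8 subunits of TRiC, the cytosolic chaperonin, 4 were higher at 4 h (Cct3 0.56, Cct2 0.51, Cct4 0.51 and Tcp1 0.44) and 2 at 8 h (Cct8 0.57 and Cct6a 0.35), with median changes of 0.35 and 0.28.

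**Figure D4:**
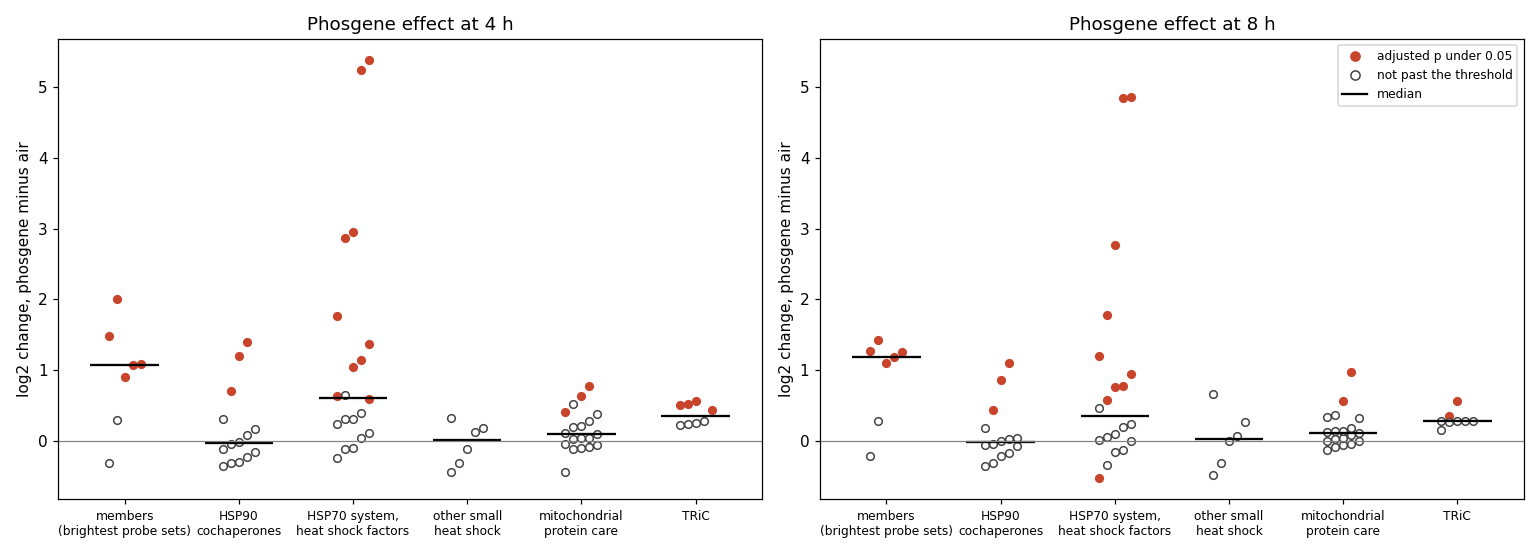
Log2 change (phosgene minus air) at 4 h and 8 h of the 7 members and of 5 lists of related genes, 1 point per gene at its brightest probe set, filled where the adjusted p was under 0.05, with list medians as bars. The member medians are 1.08 and 1.19, and the highest points are Hspa1a and Hspa1b.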

How the data were processed

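Per the labels, total RNA of mouse lung was hybridised to 104 chips, 2 for each of 52 lungs in 17 groups. The authors deposited 1 linear intensity per probe set and chip, scaled per chip to a common 2% trimmed mean (150.03 to 150.04 as recomputed here) by software not given in the sources used here. From the deposited settings of each chip, whose unit is other because they are text, 11 hybridization days and 3 lots of chips were read, the day for 97 and the lot for 95 of the 104 chips. Chips without a day or lot were left out of the fits and within-day values that use it. Chip medians lay between 68.2 and 90.1 units, and the number of lungs limits the precision.

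After 16 was added, log2 values of the 2 chips of a lung were averaged. All 17 groups were fitted together with limma 3.58.1 in R 4.3.3 (1 mean per group, eBayes with trend, 39.89 total degrees of freedom), 2-sided, with Benjamini-Hochberg adjustment over the 22626 probe sets that are not array controls and a threshold of 0.05. The offset damps changes of dim probe sets. Lung intensities in the text are means of the 2 chips, ± is the SD for intensities and the moderated SE for log2 changes.

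Probe sets were named from the platform annotation of 2016, and a gene's brightest probe set has the highest mean over all lungs. Pairs were tested with 100000 permutations within times, for which 1e-05 is the smallest p. The fit was tested on simulated data. Text names all member probe sets, the 3 genes of highest Pearson r with each member, and from each list the 4 largest changes called at 4 h or 8 h. Members and lists were chosen with earlier results of these data known. Alternatives covered offset, scaling, filter, variance trend, probe set choice, chips, day, lot, control and left-out lungs. The 2 chips of a lung share its number in the labels, and their estimated correlation was 0.286 with the chip letter as a term and the lung as a random block. The title gives the other chip letter for 56 chips. Hspa2, Tcp1 and Cct6a were named after their values were seen.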

Additional observations from a re-analysis of the deposited data

Results flagged for a closer look

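For Cryab probe set 1435837_at in the 4 air lungs at 48 h, at 38.0, 39.1, 38.1 and 31.4 units, the lowest lung was separated from the others by a gap of 0.90 of the range on the log2 scale. This was the 1 flag among the 15 member probe sets, each examined in this same group of 4 lungs, and 1 such flag may arise by chance. The probe set is dim, so the gap amounts to a few units.

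The phosgene effect differed between times for Hsp90aa1, Hspb1, Hspd1 and Hspe1. On Hsp90aa1 1437497_a_at the effect at 12 h was lower than that at 8 h by a difference of -1.05 on the log2 scale. In the F test over the 8 times the adjusted p from limma was 2e-05 on Hsp90aa1 1438902_a_at, 7.13e-08 on 1437497_a_at and 0.000473 on 1426645_at. It was 0.000235 on Hspb1 1422943_a_at and 0.000241 on 1425964_x_at. For the mitochondrial pair it was 7.61e-06 on Hspd1 1426351_at, 0.00172 on Hspe1 1450668_s_at and 0.0475 on Hspe1 1422579_at.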

How the results depend on the processing

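The counts of member probe sets called were 11 at 4 h and 12 in the mean effect, and under every alternative run these stayed within 1.5 times of the main value over the same probe sets. At 0.5 h the 1 call became 3 with the replicate block (chip letter as a term, lung as random block), with the title's chip letter, with hybridization day, with chip lot and against untreated lungs, and 0 on chip B alone and with the lungs of that time alone. Over all 22626 probe sets these fits called 84, 84, 93, 88, 220, 37 and 30, against 49 in the main fit. At 8 h the 11 calls became 7 with the lungs of that time alone, a fit that called 200 of all probe sets, against 1382. At 12 h the 1 call became 4 with the replicate block, 6 with the title's letter, 5 with day or lot, 2 against untreated lungs and 0 with the lungs of that time alone. Over all probe sets these fits called 760, 779, 722 (day), 825 (lot), 497 and 65, against 322. At 24 h the 0 calls became 1 (lower) with the replicate block, 2 (1 higher, 1 lower) with the title's letter, day or lot, and 1 against untreated lungs. Over all probe sets these fits called 679, 689 (title's letter), 746 (day), 741 (lot) and 622, against 291. At 48 h the 0 member calls became 1 with lot and 1 against untreated lungs, fits that called 1473 and 912 of all probe sets, against 958. For the change in air the 1 call became 2 with offset 1, quantile normalization, chip A alone or without the 5 air lungs, 3 with the upper 50% of probe sets or day, and 6 with the replicate block, the title's letter or lot; with 1 probe set per gene 0 became 2. The cause was not tested. Of the values of single genes, under settings other than left-out lungs, 8 lost and 26 gained a call, and 0 reversed.

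Leaving out 1 lung gave 0 to 2 calls at 0.5 h, 5 to 7 at 1 h (5 without phosgene replicate 1), 8 to 11 at 4 h, 9 to 11 at 8 h, 1 to 4 at 12 h (4 without phosgene replicate 2), 0 to 0 at 24, 48 and 72 h, 7 to 8 for the change with time and 1 to 3 for the change in air. Among pairs, Hspd1 minus Hspe1 was -0.16 with offset 64 (permutation, adjusted p = 0.0616), -0.13 on chip B alone (0.248), 0.18 with the next probe set and -0.25 to -0.18 with 1 lung left out, losing its call 5 times. Hspb1 minus Hspb8 was 0.41 with the next probe sets and otherwise not called, -0.13 to -0.06 with 1 lung left out. Hspb1 minus Cryab kept its call throughout, 0.65 to 0.71 with 1 lung left out. The Hsp90aa1 and Hsp90ab1 pair was not run. Centring chips on their medians moved the median of all probe sets at 4 h by 0.11, and the share of calls that were higher from 57.1% to 83.9% at 4 h, 52.5% to 68.2% at 8 h, 73.0% to 88.7% at 12 h and 59.8% to 72.8% at 24 h. Chip intensities carry no detection call here, so dim probe sets have no floor.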
